A study of Mus musculus with 947 samples.

Results

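The miR-183, miR-96, miR-182 cluster comprises 3 microRNA (miRNA) genes that lie side by side on mouse chromosome 6 and are read in the same direction. Its members were chosen by name, as the mature strands mmu-miR-183-5p, mmu-miR-96-5p and mmu-miR-182-5p, and were followed through every tissue, age and parabiosis group of a small noncoding RNA atlas of the aging mouse. They are 3 of the 1076 miRNAs listed for the aging cohort and 3 of the 795 listed for the parabiosis cohort. A mature miRNA guides a silencing complex to messenger RNAs, mostly by pairing through its bases 2 to 8, called the seed. This cluster is best known from sensory organs: its members are abundant in hair cells of the inner ear, in photoreceptors and in olfactory neurons, and changes in the seed of miR-96 cause hearing loss in mice and humans. The miRNAs are also found in epithelia and in some lymphocytes.

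The aging cohort held 769 libraries of 16 tissues from C57BL/6JN mice of 10 ages from 1 to 27 months. Males gave 553 of the libraries and virgin females the rest, and only males were sampled at 24 and 27 months. The parabiosis cohort held 176 libraries of 6 tissues from 30 male mice in 15 pairs joined surgically so that they shared a circulation. Young mice were joined to a young mouse (isochronic young, IY, 3 or 4.5 months) or to an aged one (heterochronic young, HY, 4 months). Aged mice of 19 months were joined to a young mouse (heterochronic aged, HA) or to an aged one (isochronic aged, IA). The HY mice came from a transgenic line and the other groups did not. A difference between HY and another group therefore cannot be told apart from a difference between lines. The other mice were C57BL/6J or C57BL/6JN. The sources disagree on which strain most of them were, and the list of samples sets the aged mice of pairs 19 and 20 apart from the rest. The animals were perfused before dissection. Tissues were measured in bulk, where fewer cells of a type and less RNA per cell cannot be told apart. Abbreviated tissues are brown (BAT, interscapular), gonadal (GAT), mesenteric (MAT) and subcutaneous (SCAT, inguinal) adipose tissue.

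Values are reads per 1000000 mapped reads (rpmm). Aging libraries held 2.29 to 167 M mapped reads and parabiosis libraries 9.20 to 47.6 M, with a median of 20.1 M in both. Marker miRNAs followed the labels in the tissue medians. Among aging libraries miR-122-5p of hepatocytes was at 37817 rpmm or more in every liver and at a median of at most 89.1 rpmm in the other tissues. Single libraries of other tissues held far more, up to 81424 rpmm in skin and 22311 rpmm in marrow, where the medians were 16.3 and 14.3 rpmm. The summed neuronal miR-124-3p, miR-9-5p and miR-128-3p were at 68766 rpmm or more in every brain library. However, 10 aging libraries and 5 parabiosis libraries were closer in their miRNA profile to another tissue than to their own. All 3 MAT libraries of 27 months were among the 10, and the 5 were MAT libraries closest to GAT. Among the others were a pancreas library of 3 months (replicate 02), which held 56.9 rpmm of pancreas markers against 7805 rpmm or more in every other pancreas and the lowest pancreas values of all 3 members, and a skin library of 21 months (replicate 24) with the lowest skin values. Tissue pairs and ratios were tested in aging libraries only. Without the 10 aging libraries the number of differing tissue pairs and of ratios that differ was the same as reported. For the ratios this left 328 of 330 libraries.

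The mature strands are shown because the members are alike and reads were mapped with 1 mismatch allowed. They are given 5′ to 3′ from RefSeq (GRCm38.p6, mm10), with the seed in capitals, together with the only other mouse miRNA of that table whose seed equals that of a member.
mmu-miR-183-5p: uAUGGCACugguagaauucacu
mmu-miR-96-5p: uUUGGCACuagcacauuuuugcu
mmu-miR-182-5p: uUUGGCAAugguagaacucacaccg
mmu-miR-1271-5p: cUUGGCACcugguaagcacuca
All 3 members lie on the minus strand: mmu-miR-183-5p at chr6:30169711-30169732, mmu-miR-96-5p at chr6:30169506-30169528 and mmu-miR-182-5p at chr6:30165962-30165986. Counting from 1 at the 5′ end, the seeds of mmu-miR-183-5p and mmu-miR-182-5p differed by A2U and C8A, those of mmu-miR-96-5p and mmu-miR-182-5p by C8A, and those of mmu-miR-96-5p and mmu-miR-183-5p by U2A. Over their full length mmu-miR-183-5p and mmu-miR-182-5p shared 18 of 22 aligned positions, whereas mmu-miR-96-5p shared 13 of 22 with mmu-miR-183-5p and 12 of 23 with mmu-miR-182-5p. mmu-miR-1271-5p, which has the seed of mmu-miR-96-5p, was not listed in the aging table.

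In the annotation the 3 hairpins span 3820 bases. Mir183 (chr6:30169668-30169737) and Mir96 (chr6:30169446-30169551) are 116 bases apart, and Mir182 (chr6:30165918-30165992) lies 3453 bases further. The hairpins overlapped no annotated exon other than their own and no host gene. The nearest protein-coding genes were Nrf1, which ends 12459 bases before the cluster in chromosome order, and Ube2h, which begins 41551 bases after it. The long noncoding RNA gene Rncr4 begins 3155 bases after the cluster on the opposite strand.

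Across tissues the members were highest in brain, skin, pancreas, lung and small intestine and lowest in heart (dot plot of 16 tissues). The median of mmu-miR-183-5p was 614 rpmm in brain (4.95 to 1671 over 51 libraries), 165 rpmm in small intestine (14.8 to 291, n = 50), 165 rpmm in skin (9.16 to 403, n = 47) and 123.9 rpmm in lung (24.9 to 738, n = 55). It was 80.3 rpmm in pancreas (0.488 to 155, n = 45), 47.96 rpmm in kidney (4.49 to 114, n = 51) and 32.3 rpmm in BAT (2.59 to 109, n = 31). The remaining medians were 17.5 rpmm in liver, 13.7 in SCAT, 5.98 in limb muscle, 4.79 in spleen, 3.68 in MAT, 3.16 in GAT, 2.64 in bone, 2.51 in marrow and 1.19 in heart (0.0892 to 2.51, n = 53). Brain stood above small intestine by 1.42 ± 0.21 (SE) on the log2(rpmm + 1) scale (limma with age as a factor, adjusted p = 4.90e-11). Small intestine and skin did not differ beyond their spread (log2 difference -0.19, adjusted p = 0.464), and neither did BAT and liver, liver and SCAT, or any neighbors in the run from spleen through MAT, GAT and bone to marrow.

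mmu-miR-96-5p, the member with the hearing phenotype, had the lowest median of the 3 in all 16 tissues, in pancreas by a small margin. Its median was 270 rpmm in brain (0.638 to 992), 77.2 rpmm in pancreas (0.366 to 315), 49.03 rpmm in lung (7.98 to 101), 43.5 rpmm in skin (3.17 to 196), 21.0 rpmm in small intestine (5.28 to 35.7), 16.5 rpmm in BAT (3.50 to 56.9) and 14.1 rpmm in kidney (1.26 to 39.5). It fell to 7.81 rpmm in liver, 2.73 in SCAT, 2.66 in limb muscle, 2.64 in spleen, 1.83 in marrow, 1.34 in bone, 1.06 in MAT, 1.03 in GAT and 0.564 in heart. Brain exceeded pancreas by 1.14 ± 0.20 on the log2 scale (limma, adjusted p = 1.23e-08), so pancreas took the place that small intestine held for mmu-miR-183-5p. Lung and skin, small intestine and BAT, and BAT and kidney did not differ beyond their spread, nor did neighbors from SCAT through limb muscle to spleen and from marrow through bone, MAT and GAT to heart.

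mmu-miR-182-5p had the highest median of the 3 in all 16 tissues. Its median was 638 rpmm in brain (3.88 to 1941), 329 rpmm in skin (20.5 to 881), 271 rpmm in pancreas (0.610 to 806), 189 rpmm in lung (45.98 to 314), 177 rpmm in small intestine (37.4 to 305), 158 rpmm in BAT (12.6 to 609) and 82.8 rpmm in kidney (9.17 to 210). The other medians were 36.5 rpmm in liver, 15.3 in SCAT, 8.63 in spleen, 6.74 in limb muscle, 5.14 in GAT, 4.66 in bone, 4.38 in MAT, 3.78 in marrow and 1.90 in heart (0.429 to 3.81). Brain was not above skin beyond the spread (log2 difference 0.35 ± 0.21, limma, adjusted p = 0.117). Skin and pancreas, lung and small intestine, small intestine and BAT, and all neighbors from spleen down to marrow also did not differ, whereas marrow exceeded heart by 0.85 (adjusted p = 4.14e-05). In all, 322 of the 360 tissue pairs of the 3 members differed, 108 of 120 for mmu-miR-183-5p and 107 of 120 for each of the others, against 70.0% of pairs over all miRNAs tested.

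**Figure D1:**
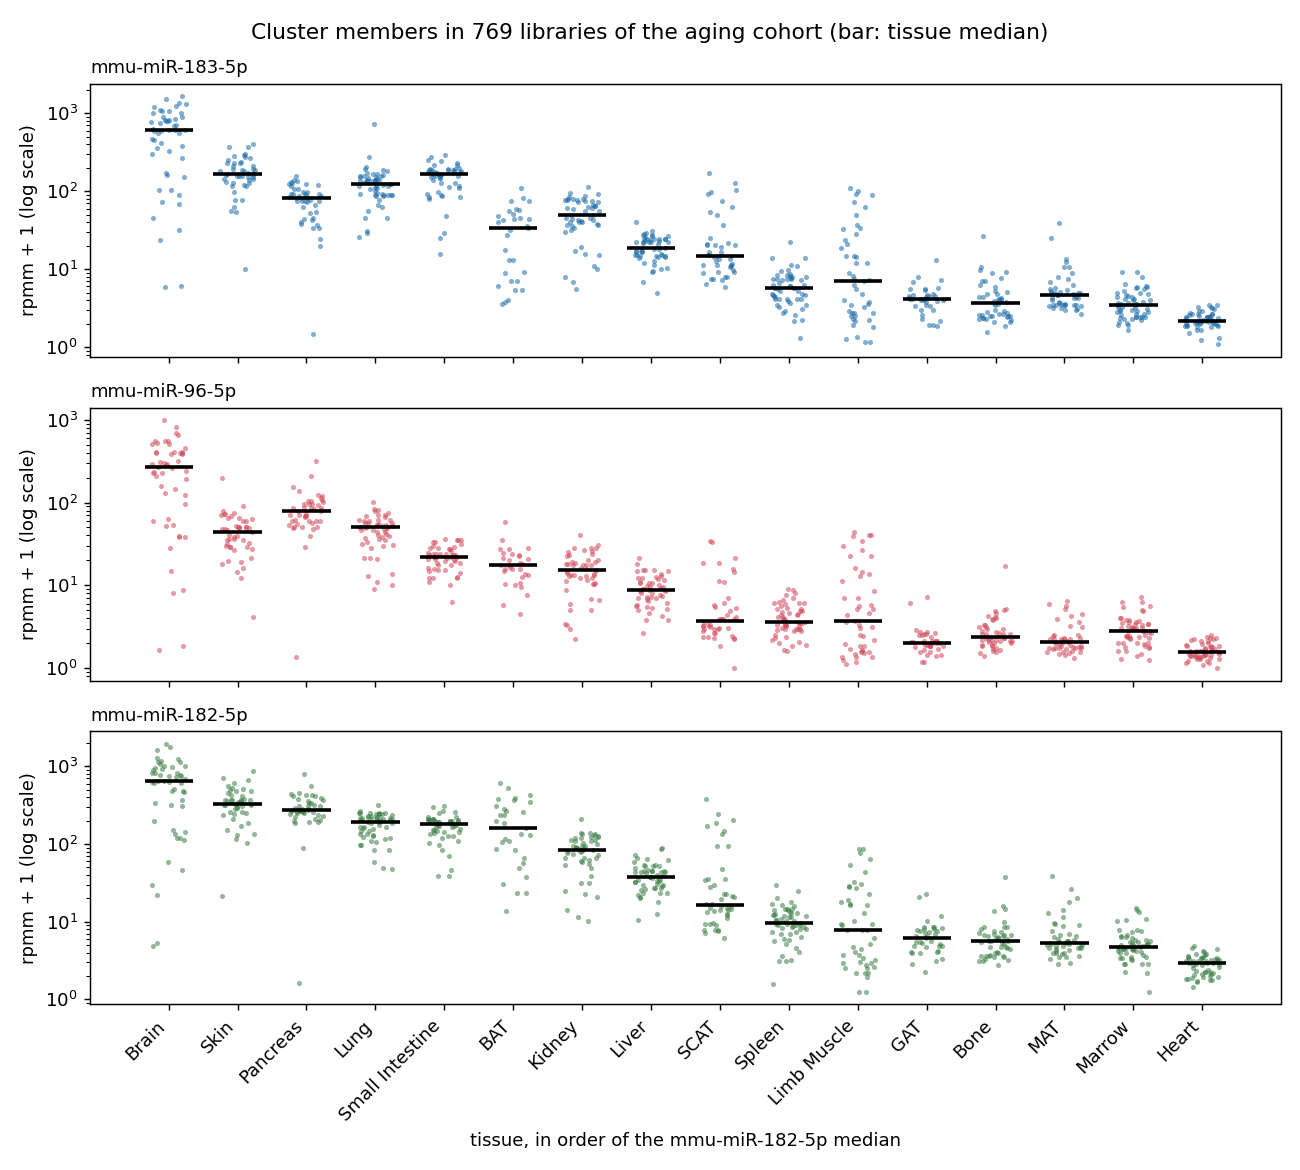
Level of each member (rpmm + 1, log axis) in the 769 libraries of the aging cohort, with 1 point per library, 1 column per tissue in the order of the mmu-miR-182-5p median, and a bar at each tissue median. Brain had the highest median for all 3 members and heart the lowest. The brain and pancreas columns were the longest, with single brain libraries as low as 4.95, 0.638 and 3.88 rpmm and 1 pancreas library at 0.488, 0.366 and 0.610 rpmm.

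The tissue patterns of the members were alike, with Spearman correlations between 0.94 and 0.96 over the 16 tissue medians. Among the other miRNAs with a median of at least 10 rpmm in some tissue, 487 with the members included, the closest to their mean pattern was mmu-miR-183-3p (rho = 0.976), the opposite strand of the same hairpin. It was followed by mmu-miR-375-3p (0.776), an islet and neuroendocrine miRNA highest in pancreas at 11658 rpmm, by mmu-miR-200a-5p (0.726), highest in small intestine at 229 rpmm, by mmu-miR-429-3p (0.691), highest in kidney at 7786 rpmm, and by mmu-miR-200a-3p and mmu-miR-200b-3p (both 0.688). The miR-200 family marks epithelia. The neuronal miRNAs were not close, with rho of 0.08 for miR-124-3p, 0.13 for miR-9-5p and -0.24 for miR-128-3p, and both red blood cell miRNAs, miR-451a and miR-144-3p, stood at -0.72. These values are over tissue medians from shared libraries and describe likeness only.

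The proportion between the members was itself a property of the tissue. In the 7 tissues where each member reached a median of 10 rpmm (330 libraries), all 3 ratios differed between tissues (permutation test of the Kruskal-Wallis statistic, p = 1e-05 each, also adjusted over the 3 ratios, and the smallest that 100000 shuffles can give). H was 261.0 for mmu-miR-183-5p over mmu-miR-182-5p, 220.6 for mmu-miR-96-5p over mmu-miR-182-5p and 227.7 for mmu-miR-96-5p over mmu-miR-183-5p. mmu-miR-183-5p and mmu-miR-182-5p were nearly level in brain, with a mean log2 ratio of -0.08 ± 0.22 (SD), and in small intestine (-0.20 ± 0.27). The ratio was lower in lung (-0.57 ± 0.38), kidney (-0.73 ± 0.25) and skin (-0.95 ± 0.28), and lowest in pancreas (-1.93 ± 0.72) and BAT (-2.62 ± 0.49). mmu-miR-183-5p exceeded mmu-miR-182-5p in 37.3% of brain, 24.0% of small intestine and 3.64% of lung libraries and in none of the kidney, skin, pancreas and BAT libraries.

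mmu-miR-96-5p relative to mmu-miR-182-5p was highest in brain (log2 ratio -1.29 ± 0.33) and pancreas (-1.84 ± 0.49), followed by lung (-1.98 ± 0.46) and kidney (-2.39 ± 0.28), and was lowest in small intestine (-2.93 ± 0.37), skin (-2.95 ± 0.29) and BAT (-3.04 ± 1.00). Relative to mmu-miR-183-5p it was highest in pancreas (0.09 ± 0.88), where it was the more abundant of the 2 in 42.2% of libraries, and in BAT (-0.42 ± 1.18, 35.5% of libraries), and lowest in small intestine (-2.73 ± 0.55). As shares of the member sum, mmu-miR-183-5p, mmu-miR-96-5p and mmu-miR-182-5p took 40.3%, 17.2% and 42.4% in brain. The shares were 43.6%, 6.52% and 49.9% in small intestine and 17.8%, 18.14% and 64.0% in pancreas. In BAT mmu-miR-182-5p alone took 77.0% ± 5.8 (SD, n = 31) and mmu-miR-183-5p 12.3% ± 3.9.

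**Figure D2:**
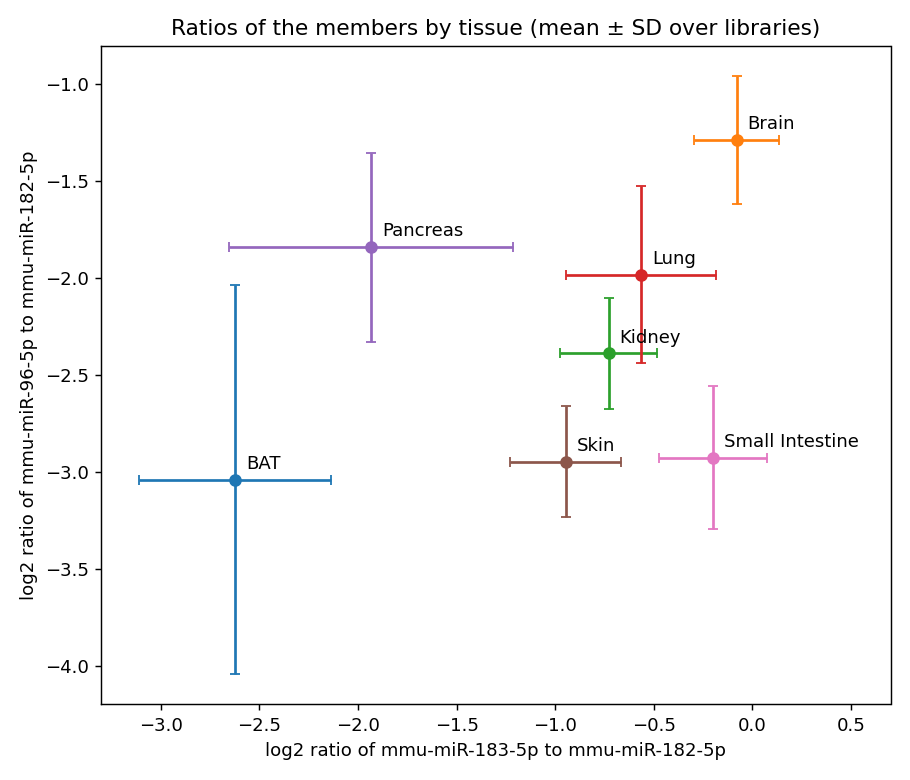
Log2 ratio of mmu-miR-183-5p to mmu-miR-182-5p (horizontal) against that of mmu-miR-96-5p to mmu-miR-182-5p (vertical), for the 7 tissues with a median of at least 10 rpmm for each member, as tissue means with SD. Brain lay at the upper right (-0.08, -1.29), BAT at the lower left (-2.62, -3.04), small intestine at the lower right (-0.20, -2.93) and pancreas at the upper left (-1.93, -1.84).

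The opposite strands of the hairpins, which are usually degraded, were scarce throughout. mmu-miR-183-3p made up a median of 1.91% of both strands in brain and up to 6.63% in small intestine, and its own median was 12.2 rpmm in brain, 10.6 in small intestine and 10.2 in skin. mmu-miR-182-3p made up 0.280% in pancreas to 3.91% in limb muscle and reached a median of 7.47 rpmm in brain. mmu-miR-96-3p was at most 0.914% of both strands by tissue median (small intestine), had no median above 0.188 rpmm, was at 0 in every GAT and heart library and was not listed for the parabiosis cohort.

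Within a tissue the members moved together from library to library. Of 62 pairings of members by tissue and cohort, 30 had a Pearson r over 0.9 on the log2(rpmm + 1) scale, and the median was 0.892. In 45 of them no other miRNA of the tissue correlated more strongly with the first member than the second member did. In brain (n = 51) mmu-miR-183-5p and mmu-miR-182-5p had r = 0.994 and rho = 0.986, with r = 0.991 without the 2 libraries farthest from the median (permutation p = 1e-05 for both, adjusted over the 62 pairings 1.07e-05 and 1.13e-05). The members parted in pancreas, lung and heart. In pancreas (n = 45) mmu-miR-96-5p and mmu-miR-183-5p had r = 0.666 but rho = 0.110 (permutation p adjusted over 62 pairings 0.00610 and 0.471), and r was -0.02 without the 2 farthest libraries, so the relation rested on those libraries. mmu-miR-183-5p and mmu-miR-182-5p in pancreas likewise dropped from r = 0.814 to 0.276 without 2 libraries. In lung (n = 55), where mmu-miR-96-5p and mmu-miR-183-5p had r = 0.642 and rho = 0.606 (r = 0.509 without 2 libraries), 26.7% of the other miRNAs followed mmu-miR-96-5p more closely. In heart, where all members are near 1 rpmm, r was 0.595 to 0.749 among aging libraries. It was 0.454 among the 30 parabiosis libraries for mmu-miR-183-5p and mmu-miR-182-5p, the lowest of the 62.

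By coefficient of variation (CV) the spread between libraries was widest in SCAT (126% to 155% by member) and limb muscle (138% to 152%), followed by MAT (83.5% to 117%) and bone (94.2% to 115%). Brain, with the highest levels, had a CV of 71.1% to 79.1%. In brain the sum of the 3 members ran from 9.74 to 4605 rpmm, while the summed epithelial markers (miR-200a-3p, miR-200b-3p, miR-200c-3p, miR-141-3p and miR-429-3p) ran from 22.98 to 23077 rpmm. Their correlation on the log2 scale was r = 0.971 and rho = 0.9001 over 51 libraries, r = 0.952 without the 2 farthest libraries, and 0.968 with plate means removed (permutation p = 1e-05, adjusted over 110 member and marker list relations 4.07e-05 for r and 7.33e-05 for rho). The summed neuronal markers ran only from 68766 to 251397 rpmm and had r = 0.629 and rho = 0.533 with the members (r = 0.538 without 2 libraries, adjusted permutation p 4.07e-05 and 0.000239). The lowest neuronal sum of a brain library was 68766 rpmm and the median 169176. The libraries given next are examples and do not include the lowest member sum. A 1-month library (replicate 28) held 4.95, 0.638 and 4.27 rpmm of mmu-miR-183-5p, mmu-miR-96-5p and mmu-miR-182-5p, with 22.98 rpmm of epithelial and 87760 rpmm of neuronal markers. A 12-month library (replicate 48) held 22.7, 7.16 and 21.0 rpmm with 46.9 rpmm of epithelial and 169176 rpmm of neuronal markers. The highest library (21 months, replicate 01) held 1671, 992 and 1941 rpmm with 23077 rpmm of epithelial and 193623 rpmm of neuronal markers. The part of epithelial cells in these levels was not tested.

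In limb muscle (tibialis anterior) the member sum ran from 0.694 to 238 rpmm and followed the same epithelial markers, which ran from 13.3 to 705 rpmm (r = 0.9001, rho = 0.889, r = 0.886 without 2 libraries, n = 47, adjusted permutation p = 4.07e-05 and 7.33e-05). In BAT the member sum, 18.7 to 709 rpmm, followed the summed epidermal markers miR-203-3p and miR-205-5p (44.4 to 958 rpmm, r = 0.930, rho = 0.943, r = 0.917 without 2 libraries, n = 31, the same adjusted p) and did not follow the epithelial ones (r = 0.157, rho = 0.165, r = 0.162 without 2 libraries, adjusted permutation p = 0.474 and 0.464). The white blood cell markers in BAT also followed the members (94.1 to 2273 rpmm, r = 0.869, rho = 0.793, r = 0.830 without 2 libraries, adjusted permutation p = 4.07e-05 and 7.33e-05). Many miRNAs moved together in BAT, where the median r of mmu-miR-183-5p with all other miRNAs was 0.758. The part of other cells in these levels was not tested.

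**Figure D3:**
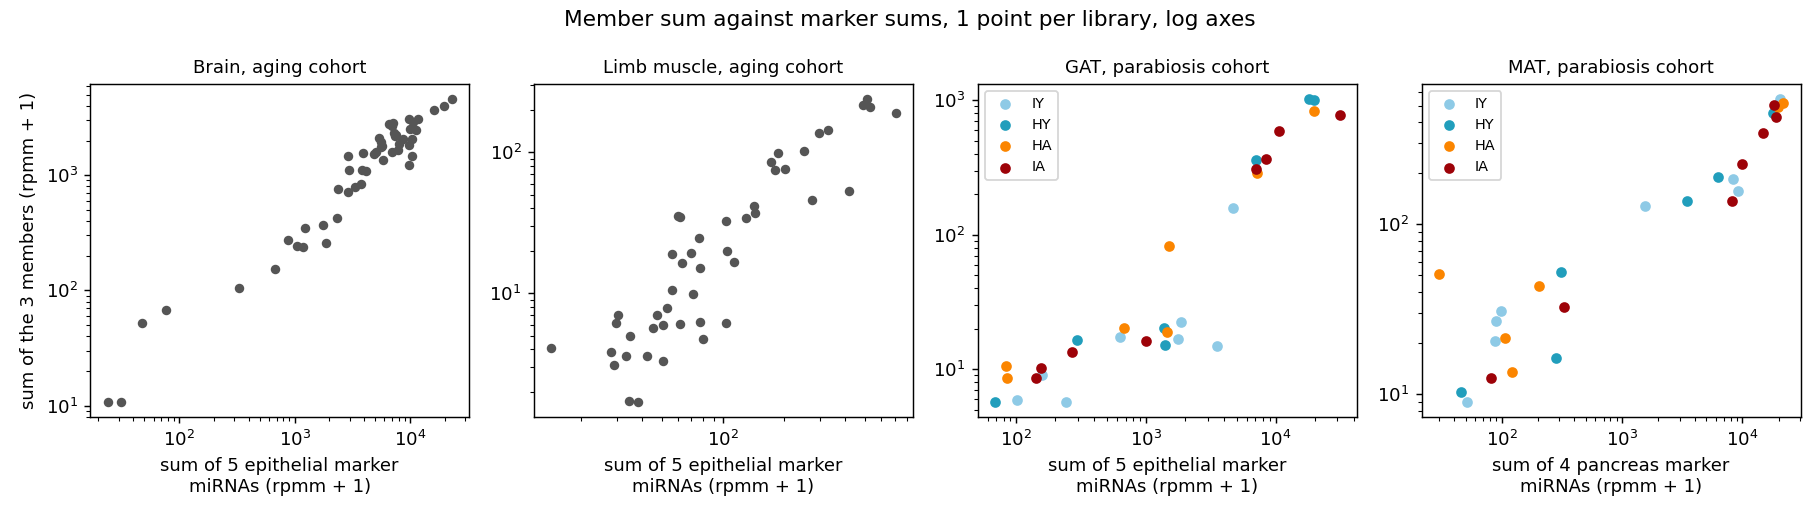
Sum of the 3 members against the sum of marker miRNAs, both in rpmm + 1 on log axes, 1 point per library. Panels show aging brain and aging limb muscle (5 epithelial markers each), parabiosis GAT (5 epithelial markers, colored by group) and parabiosis MAT (4 pancreas markers, colored by group). In each panel the points ran along a diagonal, with brain member sums of 9.74 to 4605 rpmm, and each parabiosis group was spread along it.

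Between the sexes the members differed in SCAT, in the same direction for all 3. mmu-miR-182-5p ranged from 34.79 to 374 rpmm with a median of 147 in 11 female libraries. In 27 male libraries of 1 to 21 months it ranged from 5.09 to 34.75 rpmm with a median of 14.1. The sexes did not overlap for this member, but by a margin far below their spread, and they overlapped for the other members. mmu-miR-182-5p was lower in males by a log2 difference of -3.24 ± 0.30 (limma with age as a factor, adjusted p = 6.81e-12). mmu-miR-183-5p ranged from 19.3 to 170 rpmm in females (mean 76.9 ± 46.4, SD) and from 4.93 to 53.5 rpmm in males (13.96 ± 9.29), a difference of -2.43 ± 0.29 (adjusted p = 7.34e-09). mmu-miR-96-5p ranged from 4.40 to 33.02 rpmm in females (16.3 ± 9.5) and from 0 to 6.09 rpmm in males (2.43 ± 1.24), a difference of -2.21 ± 0.24 (adjusted p = 9.50e-10). The passenger strand mmu-miR-183-3p was also lower in males in SCAT (-1.30 ± 0.14, limma, adjusted p = 3.02e-10) and, by less, in skin (-0.52 ± 0.20, adjusted p = 0.0456). Of 48 tests of a member between the sexes these 3 passed, against 4.45% of tests over all miRNAs and tissues and 69 of 592 miRNAs in SCAT, where the median of all miRNAs was 0.29 higher in males.

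The sex difference of SCAT was set against that of each other tissue in 1 model. It was more negative than in all 15 other tissues for mmu-miR-182-5p, by -4.61 to -2.39 on the log2 scale, and for mmu-miR-183-5p, by -3.70 to -1.53. For mmu-miR-96-5p the same held for 14 tissues, and for BAT the difference of -1.56 did not pass (limma, adjusted p = 0.117). In SCAT the ranges of other markers also differed by sex. These markers were not tested between the sexes, and single markers were looked at by sex in SCAT only. The sum of the 5 epithelial markers was 1087 to 7762 rpmm (median 4393) in females and 10.4 to 959 rpmm (median 134) in males. miR-200a-3p, miR-200b-3p and miR-429-3p did not overlap between the sexes, and miR-200c-3p and miR-141-3p did. The epidermal sum was 867 to 3664 rpmm in females and 22.3 to 1978 rpmm in males, which came from miR-205-5p (732 to 3412 against 1.26 to 1230 rpmm) and not from miR-203-3p (36.5 to 290 against 21.1 to 757 rpmm). None of these markers was at 0 in either sex. With the mean of each sex removed, the correlation of the member sum with the epithelial sum over the 44 SCAT libraries was 0.314. The inguinal depot surrounds the mammary gland in females. The part of epithelial cells in the difference was not tested.

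**Figure D4:**
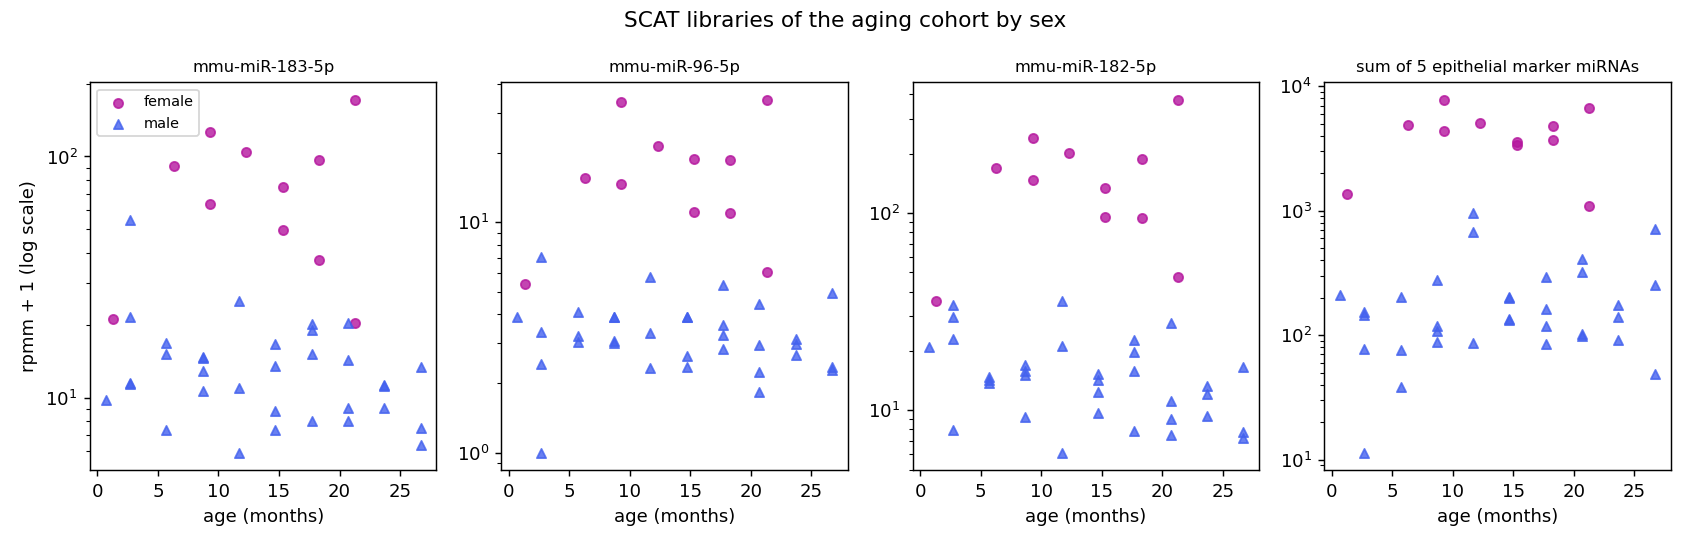
Level of each member and of the summed epithelial markers (rpmm + 1, log axis) in SCAT libraries against age in months, with females and males marked separately. Female libraries lay above male ones at each age where both were sampled for mmu-miR-182-5p (34.79 to 374 against 5.09 to 34.75 rpmm over all ages of 1 to 21 months), and the males of 24 and 27 months lay with the other males.

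With age the members changed little. Of 48 pairings of a member with a tissue, mmu-miR-96-5p in marrow was alone in passing a Spearman rho of 0.5 with age in months (rho = 0.516, n = 56, permutation p = 0.00013, adjusted over the miRNAs of the tissue 0.00238). That limit was passed by 8.06% of pairings over all miRNAs. Marrow medians of mmu-miR-96-5p were 0.619 rpmm at 1 month, 1.03 at 3, 1.34 at 6, 1.68 at 9, 1.41 at 12, 2.44 at 15, 2.18 at 18, 2.43 at 21, 2.14 at 24 and 2.83 at 27 months, all below 3 rpmm. Pearson r was 0.512 on the log2 scale and 0.465 without the 2 libraries of most extreme age, and rho was 0.566 with plate means removed. Without the 1-month libraries rho was 0.388, without the 24- and 27-month libraries 0.486, and within single plates it ran from -0.12 (n = 6) to 0.878 (n = 9). By the adjusted permutation p alone 4 pairings passed, against 18.0% over all miRNAs: besides this one, mmu-miR-182-5p in marrow (rho = 0.447, adjusted p = 0.00830), mmu-miR-182-5p in BAT (0.432, adjusted p = 0.0443) and mmu-miR-96-5p in liver (0.373, adjusted p = 0.0353). The median rho of all miRNAs was -0.04 in marrow but 0.385 in BAT and 0.163 in liver.

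Against 3 months, 9 of 342 tests of a member at a later age passed, 7 in liver and 2 in MAT, where 2.76% passed over all miRNAs. Liver mmu-miR-96-5p averaged 3.75 ± 0.97 rpmm at 3 months (2.76 to 5.07, n = 6) and 10.3 ± 3.2 rpmm at 6 months (5.98 to 14.3, n = 6), without overlap, a log2 difference of 1.23 ± 0.31 (limma, adjusted p = 0.0102). It also rose at 21 months (1.05 ± 0.33, adjusted p = 0.0314), at 24 months (1.40 ± 0.38, adjusted p = 0.00801) and at 27 months (1.35 ± 0.35, adjusted p = 0.00298). Liver mmu-miR-182-5p averaged 20.1 ± 5.1 rpmm at 3 months (11.6 to 26.2) and 53.4 ± 19.3 rpmm at 6 months (29.7 to 85.1) and rose at 6 (1.33 ± 0.32, adjusted p = 0.00924) and 27 months (1.15 ± 0.36, adjusted p = 0.0136). Liver mmu-miR-183-5p rose at 6 months only by the test (0.99 ± 0.32, adjusted p = 0.0313), from 10.4 ± 3.0 to 21.5 ± 5.7 rpmm. At 1 month liver mmu-miR-96-5p was at 6.55 ± 2.52 rpmm (n = 6), and from 9 months on its medians lay between 4.49 (12 months) and 11.3 rpmm (27 months).

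The liver differences shared the direction of the whole tissue. The median log2 difference of all miRNAs was 0.41 at 6 months, 0.38 at 21, 0.49 at 24 and 0.55 at 27 months, and 71 of 501 and 143 of 501 miRNAs passed at 6 and 27 months. When values were scaled to miRNA reads or by median ratios, which removes that shift, the 7 differences were 0.43 to 0.95 and none passed (limma, adjusted p 0.102 to 0.549). With plate as a covariate, mmu-miR-96-5p at 21 months still passed (adjusted p = 0.0450) while its differences at 6 and 27 months and those of the other members did not, and 24 months could not be fitted. The same covariate added all 3 members in liver at 15 months (adjusted p = 0.0271 to 0.0415) and all 3 in kidney at 6 months (1.44 to 1.74, adjusted p = 0.0277 to 0.0369). Leaving out single libraries of 3 months (replicates 06, 14, 28 or 35), 6 months (29, 49, 50 or 56), 21 months (10), 24 months (07, 12 or 53) or 27 months (13) gave 5 or 6 liver calls. Leaving out a 1-month library (37) gave 12.

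In MAT the 27-month libraries stood above those of 3 months. mmu-miR-182-5p was 16.5 ± 3.1 rpmm (13.2 to 19.3, n = 3) against 3.27 ± 1.53 rpmm (1.87 to 5.79, n = 5), a log2 difference of 2.08 ± 0.50 (limma, adjusted p = 0.00183), and mmu-miR-96-5p was 4.16 ± 1.06 against 0.957 ± 0.352 rpmm (1.39 ± 0.36, adjusted p = 0.00301). mmu-miR-183-5p was 8.02 against 2.79 rpmm (1.26 ± 0.53, adjusted p = 0.0579). With plate as a covariate mmu-miR-182-5p passed (1.72, limma, adjusted p = 0.0438) and mmu-miR-96-5p did not (1.16, adjusted p = 0.0721). All 3 of these 27-month libraries were closest to another tissue, and their summed white blood cell markers (miR-142a-3p, miR-150-5p and miR-223-3p) were 7878, 10667 and 14170 rpmm against 711 to 1375 rpmm at 3 months. Leaving out any one of them (replicates 31, 33 or 53) removed both calls, and without all 3 the comparison could not be fitted. In the same comparison 212 of 591 miRNAs passed, with a median of 0.40. The part of white blood cells was not tested. Without all libraries closest to another tissue, mmu-miR-182-5p and mmu-miR-96-5p were lower in skin at 6 than at 3 months (log2 differences -1.18 and -1.22, limma, adjusted p = 0.0349 and 0.0368), which did not pass with them. From 1 to 3 months none of the 42 tests passed in limma (2 at an unadjusted p under 0.05) or in edgeR (3 unadjusted), against 1.76% over all miRNAs in limma, and without 1 kidney library of 1 month (replicate 09) all 3 members passed in kidney.

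In the parabiosis cohort the members were on average higher in HA than in HY mice in kidney (plot of parabiosis groups). mmu-miR-183-5p in HA kidneys was 128.4, 98.1, 135, 306, 60.7 and 96.7 rpmm in mice 11A, 12A, 14A, 1A, 20A and 5A, and in HY kidneys 49.5, 46.9, 44.8, 86.8, 61.5, 74.9 and 60.3 rpmm in mice 11B, 12B, 14B, 1B, 20B, 2B and 5B. mmu-miR-182-5p was 235, 160, 241, 410, 107 and 147 rpmm in the same HA mice and 98.6, 81.4, 87.2, 117, 100.5, 109 and 109 rpmm in the HY mice. mmu-miR-96-5p was 43.7, 28.2, 48.5, 83.9, 21.4 and 29.2 rpmm in HA and 20.2, 15.3, 15.7, 38.2, 21.9, 31.6 and 19.5 rpmm in HY mice. Mouse 1A was highest and 20A lowest among the HA mice for each member, and 20A lay inside the HY range, so the groups overlapped. For mmu-miR-96-5p mice 12A and 5A lay inside the HY range as well.

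HA kidneys were higher than HY kidneys for mmu-miR-182-5p (216.8 ± 108 against 100.2 ± 12.5 rpmm, log2 difference 0.98 ± 0.22, limma, adjusted p = 0.00159), for mmu-miR-183-5p (138 ± 86.7 against 60.7 ± 15.6 rpmm, 1.02 ± 0.26, adjusted p = 0.00502) and for mmu-miR-96-5p (42.5 ± 22.7 against 23.2 ± 8.5 rpmm, 0.77 ± 0.28, adjusted p = 0.0415). The passenger strands mmu-miR-183-3p (1.05 ± 0.24, adjusted p = 0.00147) and mmu-miR-182-3p (0.74 ± 0.22, adjusted p = 0.0140) rose as well. These 3 calls were the only ones for the members in limma among 16 tests of HA minus HY. edgeR made 4, with mmu-miR-182-5p in limb muscle added (1.16, adjusted p = 0.0327). The limma calls stood against 9.81% over all miRNAs and 22.7% of the 537 miRNAs in kidney, where the median of all miRNAs was -0.03. The call of mmu-miR-96-5p was lost without HA mouse 11A, 14A or 1A or HY mouse 11B, 12B, 14B, 20B or 5B, with differences of 0.55 to 0.93 over all omissions and an adjusted p of up to 0.144. Summed white blood cell markers in kidney were 1018 to 2412 rpmm in HA, 1015 to 2237 in IA, 502 to 997 in HY and 516 to 1244 in IY mice, and the epithelial sum was 12479 to 17570 in HA and 12026 to 17445 in HY mice. The white blood cell sum had r = 0.552 and rho = 0.740 with the member sum over the 29 kidneys (r = 0.542 without 2 libraries, adjusted permutation p = 0.00338 and 0.000165) and r = 0.274 with group means removed. Its part in the difference was not tested.

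HA minus IA, which the study calls REJ because it asks what young blood does to aged tissue, and HA minus HY share the HA mice. In IA kidneys mmu-miR-183-5p was 72.0 ± 23.7 rpmm (45.5 to 113, n = 8), mmu-miR-182-5p 129 ± 45 rpmm (90.8 to 225) and mmu-miR-96-5p 28.3 ± 9.9 rpmm (17.2 to 42.3). The HA minus IA differences were 0.80 ± 0.26 for mmu-miR-183-5p (95% interval 0.30 to 1.30) and 0.67 ± 0.22 for mmu-miR-182-5p (0.25 to 1.09), neither past the threshold (limma, adjusted p = 0.0941 for both), and 0.50 for mmu-miR-96-5p (adjusted p = 0.381), whereas mmu-miR-183-3p was higher in HA kidneys (0.97 ± 0.23, adjusted p = 0.0373). No member passed in any tissue for this comparison (0 of 16 in limma with 2 at an unadjusted p under 0.05, 0 of 16 in edgeR with 3), against 0.965% over all miRNAs. Without pairs 19 and 20, whose aged mice are listed under another strain than the rest, both passed in kidney (limma, 1.02, adjusted p = 0.0191, and 0.91, adjusted p = 0.0127). Leaving out HA mouse 20A or IA mouse 19B alone raised the calls of members in kidney from 3 to 5 over all comparisons.

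HY minus IY, which the study calls ACC, compares young mice joined to an aged one with young mice joined to a young one. It also compares the transgenic line with another, so aged blood and line cannot be told apart. The kidney differences were 0.21 for mmu-miR-183-5p, 0.11 for mmu-miR-96-5p and 0.00 for mmu-miR-182-5p. IY kidneys were at 52.7 ± 14.7, 21.3 ± 6.8 and 100.3 ± 16.2 rpmm of these members. None of 16 tests passed in limma (0 unadjusted) or in edgeR (3 unadjusted), as for all miRNAs in limma (0%). IA minus IY compares ages among mice joined to a partner of about their own age. It gave 0.31 to 0.42 in kidney (limma, adjusted p 0.320 to 0.416). Of 16 tests, 0 passed in limma with 2 unadjusted and 0 in edgeR with 5 unadjusted, where 8.13% passed over all miRNAs in limma.

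**Figure D5:**
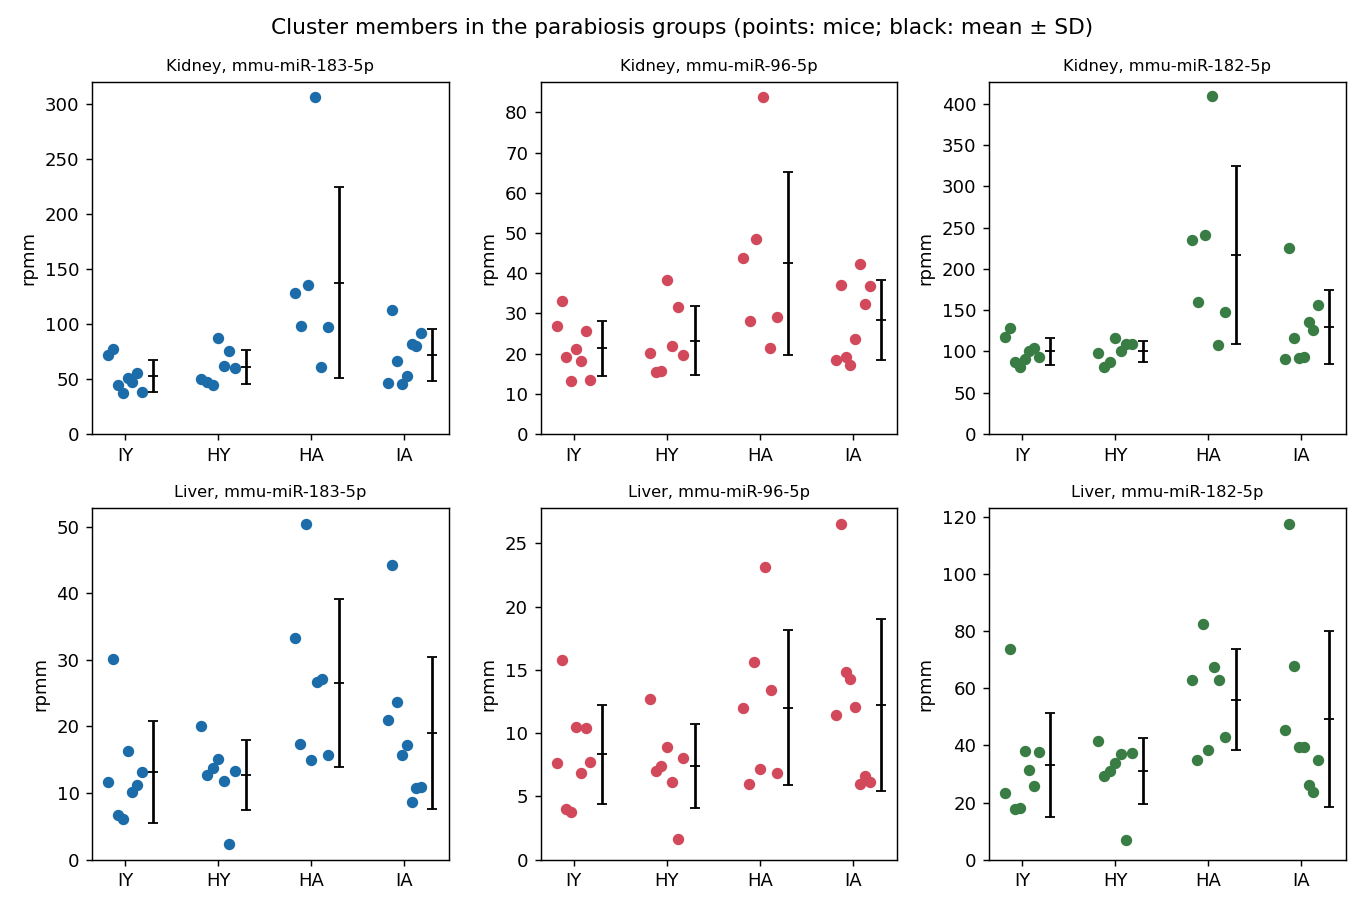
Member levels (rpmm, linear axes from 0) in kidney and liver of the 4 parabiosis groups, 1 point per mouse with the group mean and SD in black. In kidney HA mice reached 306 rpmm of mmu-miR-183-5p and 410 rpmm of mmu-miR-182-5p while no HY mouse passed 86.8 and 117 rpmm, and in liver the groups overlapped.

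In liver HA mice lay above HY mice by a similar amount, without passing the test. mmu-miR-183-5p was 15.0 to 50.4 rpmm in HA and 2.41 to 20.1 rpmm in HY mice (1.04 ± 0.36, limma, adjusted p = 0.0760), mmu-miR-182-5p 34.7 to 82.4 against 6.72 to 41.7 rpmm (0.93 ± 0.35, adjusted p = 0.123) and mmu-miR-96-5p 6.01 to 23.1 against 1.62 to 12.7 rpmm (0.64, adjusted p = 0.294), with all miRNAs at a median of 0.30. mmu-miR-183-3p passed (0.73 ± 0.19, adjusted p = 0.00764). HY mouse 2B was lowest for all 3 members and had the lowest miR-122-5p of the livers, 23123 rpmm. The HA minus HY difference of kidney was not shown to differ from that of any of the other 5 tissues (0 of 15 differences passed in limma). The standard errors of these differences were 0.977 to 1.12. A difference of the size seen in kidney could therefore not be detected, and similarity of the tissues was not shown either.

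GAT and MAT of the parabiosis cohort were the most uneven tissues. mmu-miR-183-5p in GAT was 1.87 to 252 rpmm in HA, 1.73 to 314 in HY, 2.27 to 229 in IA and 1.39 to 46.8 in IY mice, and in MAT 2.70 to 136 rpmm over the 27 libraries, although GAT of the aging cohort never passed 12.0 rpmm. In GAT the member sum, 4.69 to 1026 rpmm, followed the epithelial markers, which ran from 67.5 to 31186 rpmm (r = 0.913, rho = 0.930, r = 0.901 without 2 libraries and 0.924 with group means removed, n = 30, adjusted permutation p = 4.07e-05 and 7.33e-05). In MAT the member sum, 7.99 to 548 rpmm, followed the pancreas markers miR-216a-5p, miR-216b-5p, miR-217-5p and miR-375-3p, which ran from 28.9 to 21845 rpmm (r = 0.945, rho = 0.929, r = 0.969 without 2 libraries and 0.9501 with group means removed, n = 27, the same adjusted p). The epithelial markers followed them almost as closely there (r = 0.934, rho = 0.922, r = 0.936 without 2 libraries, the same adjusted permutation p). The intervals were correspondingly wide, -3.19 to 1.61 for HA minus HY of mmu-miR-183-5p in GAT, so effects of several fold could not be detected there. In heart and limb muscle the group medians of the members were 0.184 to 1.71 rpmm, and the highest value was 5.87 rpmm of mmu-miR-182-5p in limb muscle (HA mouse 14A). The member sum of 1 tissue did not follow that of another tissue in the same mice: of 15 tissue pairs the highest correlation was between limb muscle and liver (r = 0.343, rho = 0.289, r = 0.258 without 2 mice, n = 30, permutation p adjusted over 15 pairs 0.887 and 0.869).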

How the data were processed

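Small RNA libraries were made with a kit that enriches for short RNA and were sequenced on a BGISEQ platform. The authors mapped the reads to mm10 and miRBase with Bowtie inside miRMaster, allowed 1 mismatch, dropped libraries with few aligned reads and deposited the signal as reads per 1000000 mapped reads (rpmm) per noncoding RNA, keeping RNAs with at least 1 rpmm in some library. A mature RNA with several precursors was represented by the highest of them. Because the scaling is to all mapped reads, a level also moves with the share that miRNAs took of a library, 0.318% to 107% of mapped reads in the aging cohort by the listed values (reads can count for several RNAs). The low values were whole multiples of 1 read for 99.0% of aging and 98.8% of parabiosis miRNA values, within a tolerance of 0.05 reads and up to 1000 reads, which gave the depths and read counts.

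Tissue, age, sex and parabiosis group came from the labels, and 2 columns of the aging table could not be matched to a sample and were not used. Libraries, not mice, are the units, since title numbers do not mark a mouse, so p-values measure the spread between libraries. Differences were tested with limma 3.58.1 (R 4.3.3) on log2(rpmm + 1) over all miRNAs with at least 1 rpmm in 10% of a tissue's libraries, with Benjamini-Hochberg adjustment within tissue and comparison and a threshold of 0.05. Fold changes on this scale understate those of low miRNAs. Age was also tested by Spearman correlation with 100000 shuffles and a limit of 0.5, after the methods of the study. edgeR 4.0.16 on the recovered reads was an alternative. Text names the members, their opposite strands, miRNAs of equal seed, the 5 others closest in tissue pattern and marker miRNAs. Members, lists and tests were chosen with earlier results of these data known. The lowest chi-square per degree of freedom between replicates was 32.3, so no 2 libraries agreed within counting noise. The fits were tested on simulated data. Alternatives were other scalings, filters and pseudocounts, sex, plate, pool and set covariates, and omitted libraries.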

Additional observations from a re-analysis of the deposited data

Results flagged for a closer look

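Sets of member values were taken from the parabiosis groups, and the aging groups behind a call, with 4 to 10 libraries. Of 83 sets, 18 (21.7%) had 1 value far from the others by Dixon's ratio, and all were in the parabiosis cohort. Chance gives about 1 in 20 if values are normally distributed. The ratio was taken on rpmm and not on a log scale, and most of the far values were the highest of their group. Skewed values alone can give such flags, so the share cannot be compared with that rate. The 3 members were tested separately, and since they move together these values are not independent.

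In adipose tissue, mouse 15B (IY) stood apart in both depots sampled. In GAT it held 46.8 rpmm of mmu-miR-183-5p, 48.1 of mmu-miR-96-5p and 62.0 of mmu-miR-182-5p, and in MAT 136, 106 and 306 rpmm. HA mouse 1A stood apart in GAT with 252 rpmm of mmu-miR-183-5p and 424 of mmu-miR-182-5p, and in kidney with 306 rpmm of mmu-miR-183-5p.

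In liver, IA mouse 19B was high for all members with 44.3, 26.5 and 118 rpmm of mmu-miR-183-5p, mmu-miR-96-5p and mmu-miR-182-5p. IY mouse 10B was high with 30.1 rpmm of mmu-miR-183-5p and 73.7 of mmu-miR-182-5p, and HY mouse 2B was low with 6.72 rpmm of mmu-miR-182-5p. In muscle the values that stood apart were small: 0.919 rpmm of mmu-miR-96-5p in the heart of IY mouse 10A, and 5.87 and 0.353 rpmm of mmu-miR-182-5p in limb muscle of HA mouse 14A and IY mouse 16A.

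The male minus female difference of SCAT differed from that of other tissues by limma's test of the difference in 15 of 15 tissues for mmu-miR-182-5p, in 15 of 15 for mmu-miR-183-5p and in 14 of 15 for mmu-miR-96-5p.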

How the results depend on the processing

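Every call of a single member kept its direction under every setting run. Calls at later ages, 9 as reported, numbered 4 with a mean of at least 10 rpmm required, 3 with miRNA-read scaling, 2 with median-ratio scaling, 16 with edgeR, 17 with sex as a covariate, 10 with plate as a covariate (not the same calls), 14 with the set of consecutive title numbers as a covariate (chosen after seeing the data) and 7 to 14 when 1 library was left out. Without the libraries closest to another tissue they were 9 again, but with 2 in skin in place of the 2 in MAT. Of 16 member calls, each of the 2 scalings kept 9 and lost the 7 in liver. Calls from 1 to 3 months were 0 to 3 with 1 library left out. Sex calls, 3 as reported, were 8 with miRNA-read scaling, 5 with median-ratio scaling, 5 with edgeR, 5 with plate as a covariate and 3 to 4 with 1 library left out. The added calls were in bone, kidney and skin, all lower in males. Parabiosis calls, 3 as reported, were 5 without pairs 19 and 20 and 2 to 5 with 1 library left out. Without the filter they were 2, with kidney mmu-miR-96-5p lost (adjusted p = 0.0641). They were 4 with median-ratio scaling (kidney mmu-miR-183-5p in HA minus IA, adjusted p = 0.0492), 4 with miRNA-read scaling (heart mmu-miR-182-5p in IA minus IY, adjusted p = 0.0446) and 4 with edgeR (limb muscle mmu-miR-182-5p in HA minus HY). With the pair number as a replicate block they were 3. The block was applied to HA minus HY only, where it changed no call, and the other comparisons were not blocked. With isochronic partners averaged the 3 calls were kept. Mice of a heterochronic pair deviated together, by r above 0.1, in 7 of 7 pairs in liver but in 3 of 6 in kidney. For isochronic pairs in liver r ran from -0.44 to 0.55. The pool of sequencing and the omission of GAT and MAT libraries high in other markers, both chosen after seeing the data, kept all 3. Tissue pairs that differed were 320 to 325 of 360 with 1 library left out, and 321 with the title number as a replicate block. Because that number does not mark a mouse, the block does not account for libraries of the same mouse. Age correlations past 0.5, 1 as reported, were 4 by adjusted p, 2 with miRNA-read scaling, 0 without 1-month libraries, 0 without 24- and 27-month libraries and 0 to 2 with 1 library left out (0 without marrow 1 month replicate 23, 2 without BAT 24 months replicate 23). Ratios differed under all settings (3 of 3). Below about 3 rpmm a member rests on few reads in shallow libraries, and differences there could not be detected unless large. Medians lay below 3 rpmm for all 3 members in heart and for mmu-miR-183-5p and mmu-miR-96-5p in marrow and bone. For mmu-miR-96-5p they also did in SCAT, limb muscle, spleen, MAT and GAT.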
